A study of Mus musculus with 6 samples.

Results

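Efferocytosis is the uptake of dying cells by phagocytes, and 10 genes of its recognition and signalling steps were followed in mouse bone marrow derived macrophages given RIP1i or DMSO. They are the receptor tyrosine kinases Mertk, Axl and Tyro3, their ligands Gas6 and Pros1, the bridging protein Mfge8, the integrin chains Itgav, Itgb3 and Itgb5, and the adaptor Elmo1. The genes were picked by symbol, and each of the 10 matched a row of the deposited tables, which list 52459 genes in all. The libraries comprise 3 from cultures treated with RIP1i and 3 from cultures treated with DMSO, the solvent control. All came from C57BL/6 marrow grown in GM-CSF, with the agent added at day 7 and left overnight. Neither the RIP1i compound and its dose nor the origin of the 3 replicates in separate animals or cultures is stated, so the p-values below describe variation among libraries that could be purely technical. RIP1 is a kinase of TNF receptor signalling, and the comparison asks what RIP1i does to the transcripts of these cells.

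A dying cell exposes phosphatidylserine on its outer membrane. Gas6 and protein S (the product of Pros1) bind this lipid through their Gla domains and engage the TAM receptors. Gas6 binds all of Tyro3, Axl and Mertk, while protein S acts on Tyro3 and Mertk. MFG-E8, the product of Mfge8, ties phosphatidylserine to the integrins formed by alpha V with beta 3 or beta 5. ELMO1 works with DOCK1 downstream, where the pair activates the GTPase Rac and the phagocytic cup forms. Macrophages rely on these steps to clear dead cells without inflammation.

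The data show a Mfge8- and Axl-rich profile that RIP1i left without a called difference. Mfge8 was 1.11-fold as high in RIP1i as in DMSO (95% interval 1.03 to 1.21) and Axl 0.951-fold (0.887 to 1.02), and for these members every RIP1i library lay on one side of every DMSO library. Neither passed the test, nor did any other member. For the other 8 members, the span between libraries of at least 1 treatment (log2 CPM) exceeded the fitted difference between treatments.

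The promoters of 4 members are shown because Mfge8 and Axl were the members whose groups did not overlap, and Pros1 and Itgav shared 1 order of the 6 libraries. The sequences are RefSeq's, build GRCm38.p6, 300 bases each, read 5′ to 3′ on the strand of the gene, with the transcription start at base 251. The windows are chr7:79149011-79149310 (Mfge8, minus strand), chr7:25788684-25788983 (Axl, minus strand), chr16:62854057-62854356 (Pros1, plus strand) and chr2:83724147-83724446 (Itgav, plus strand). Capitals mark matches on either strand to the Sp1 motif GGGCGG or to the PU.1 core GAGGAA, searched without allowance for mismatches, with overlapping matches counted.
Mfge8: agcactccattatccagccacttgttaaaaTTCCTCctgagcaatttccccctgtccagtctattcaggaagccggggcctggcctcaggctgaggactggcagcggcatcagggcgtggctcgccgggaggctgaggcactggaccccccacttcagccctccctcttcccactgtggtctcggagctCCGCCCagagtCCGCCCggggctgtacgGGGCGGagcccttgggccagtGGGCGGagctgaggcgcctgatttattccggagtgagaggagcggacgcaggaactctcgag
Axl: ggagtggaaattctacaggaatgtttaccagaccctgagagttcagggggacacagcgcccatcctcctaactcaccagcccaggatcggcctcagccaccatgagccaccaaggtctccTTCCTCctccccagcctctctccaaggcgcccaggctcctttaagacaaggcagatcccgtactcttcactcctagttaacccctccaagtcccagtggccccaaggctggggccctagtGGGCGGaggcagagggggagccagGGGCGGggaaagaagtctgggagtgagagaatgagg
Pros1: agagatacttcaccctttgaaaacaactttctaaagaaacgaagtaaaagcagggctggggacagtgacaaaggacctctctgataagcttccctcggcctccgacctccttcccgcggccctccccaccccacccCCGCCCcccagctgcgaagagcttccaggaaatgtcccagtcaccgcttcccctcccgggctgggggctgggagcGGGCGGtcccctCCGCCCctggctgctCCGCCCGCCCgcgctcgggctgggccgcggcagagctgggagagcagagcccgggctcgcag
Itgav: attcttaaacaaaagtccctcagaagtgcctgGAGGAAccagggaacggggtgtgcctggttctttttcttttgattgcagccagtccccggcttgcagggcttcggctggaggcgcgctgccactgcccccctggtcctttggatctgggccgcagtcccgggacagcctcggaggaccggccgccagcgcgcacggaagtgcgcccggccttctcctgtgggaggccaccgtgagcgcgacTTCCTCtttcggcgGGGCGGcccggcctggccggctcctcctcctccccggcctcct

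The Sp1 letters occurred in all 4 windows, with 4 matches in Mfge8, 2 in Axl, 5 in Pros1 and 1 in Itgav. The PU.1 letters, the core bound by a factor of the myeloid lineage, occurred once in Mfge8, once in Axl and at 2 places in Itgav, and Pros1 held no match. Over the 9 members with a promoter entry, 9 held the Sp1 letters and 4 the PU.1 letters, against 35.7% and 28.3% of 32851 mouse promoters of the same length. The members were counted by gene and the 32851 by promoter, and promoter 2 of Elmo1 held 0 matches to either. The GC content of the 10 member promoters (Elmo1 has 2) ran from 46.0% to 73.3%, beside a median of 52.7% over the 32851. Only promoter 2 of Elmo1, at 46.0%, lay below that median, and the others were at 58.3% or more. The shares of all promoters were not matched for GC content, and the Sp1 letters are all G and C. The letters of AP-1 (TGANTCA), the E-box (CACGTG) and CRE (TGACGTCA) were not in any member window, and their shares of all promoters were 7.81%, 7.15% and 1.79%. The TATA letters (TATAAA) were in 1 member, Elmo1, and in 13.6% of all promoters.

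Library totals ran from 40729238 to 42378138 counts in RIP1i and from 40264902 to 44862310 counts in DMSO. A member had between 374 and 78884 reads in a library. The labelled cell type was checked against markers: all 10 macrophage markers, among them Adgre1, Csf1r and Cd68, averaged at least 1 CPM (counts scaled to library size with TMM factors). Dendritic cell markers were present too, with 7 of 10 at that level, as were stromal (11 of 12) and neutrophil transcripts (7 of 10). Nearly all of the dendritic cell sum was Itgax and H2-Ab1, and Flt3, Siglech and Xcr1 of that list were below that level. Fewer cells of a type and less RNA per cell cannot be told apart in such bulk libraries.

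Levels between genes are compared as FPKM, the deposited values per kilobase of gene length. For the members this length was close to the annotated exons of all transcripts merged. It was 12583 bases for Elmo1, with 7 transcripts, and 2548 bases for Gas6, with 1. Merged exons are at least as long as any 1 transcript, so FPKM can understate genes with several transcripts. Which transcripts the cells used was not tested. Mfge8 stood first with 339 to 402 FPKM over the 6 libraries, place 86 among all genes of the table. Axl was second with 253 to 275 FPKM, place 133. Gas6 (61.3 to 85.0 FPKM) and Itgb5 (66.8 to 75.1 FPKM) came next, and their ranges overlapped. Pros1 (34.7 to 46.0 FPKM) and Mertk (34.9 to 42.2 FPKM) followed with overlapping ranges. Below them stood Itgav (6.93 to 9.57 FPKM), Tyro3 (4.36 to 5.78 FPKM), Elmo1 (3.87 to 4.17 FPKM) and Itgb3 (1.4 to 1.84 FPKM). Apart from those overlapping pairs, neighbours in this order were separated in the 6 libraries. The order depends on the gene length used. Elmo1 stood below Tyro3 in FPKM but above it in CPM (51.1 against 34.4 in RIP1i, 49.9 against 30.2 in DMSO).

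**Figure D1:**
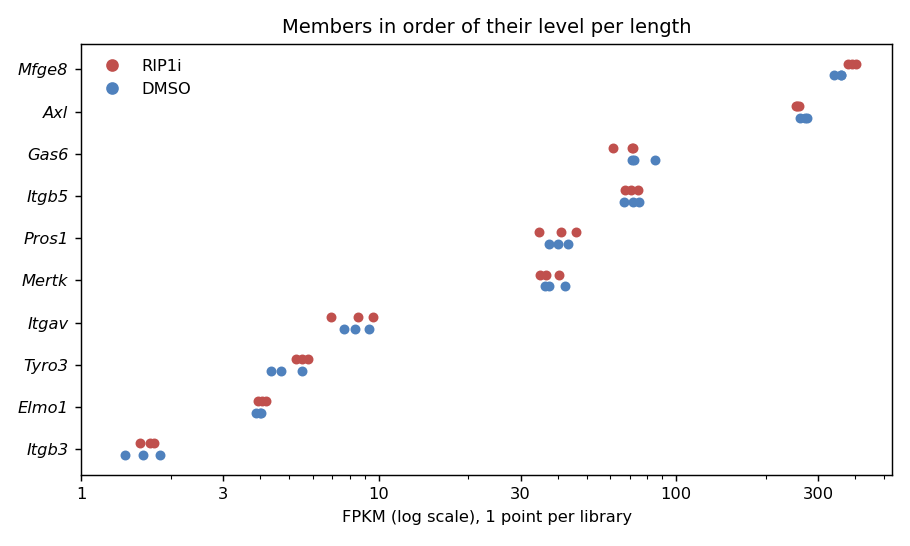
Level of each member in FPKM on a log axis, 1 point per library, RIP1i (red) above DMSO (blue). Mfge8 and Axl stand at 253 to 402 FPKM and Itgb3 at 1.4 to 1.84 FPKM, and the ranges of Gas6 with Itgb5 and of Pros1 with Mertk overlap.

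Across all 14857 genes tested with edgeR's quasi-likelihood test, none had an adjusted p under 0.05 (0% called), and the smallest adjusted p was 0.777. All 10 members passed the filter on low counts and 0 of 10 were called. An unadjusted p under 0.05 was met by 1 member (Mfge8, fitted higher), where 6.21% of all genes met it, 3.59% fitted higher and 2.62% lower. DESeq2 called 2 genes (0.0135%) and limma-voom 0, with 0 members in either. For 2 of the 10 members the libraries separated by treatment, against 13.5% of all genes. Of these, 1 was higher (7.36% of all genes) and 1 lower (6.18%). With so few members, these counts do not set the members apart from the background. Members were fitted higher in 5 cases and lower in 5, where 51.0% of all genes were fitted higher and 49.0% lower. Their median log2 fold change was 0.0031, beside 0.0025 over all genes.

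The differences were bounded closely. For all 10 members the 95% interval lay within 1.5-fold in either direction, which held for 73.0% of all genes and for 97.9% of the 8584 genes with a mean CPM at least that of Itgb3, the lowest member. The widest bounds among the members were 0.776-fold for Gas6 and 1.31-fold for Tyro3.

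**Figure D2:**
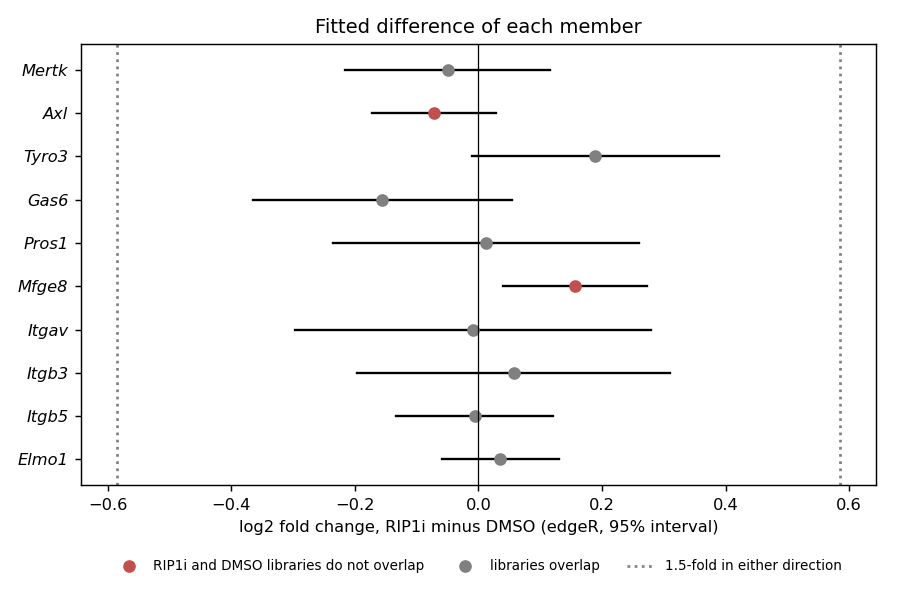
Fitted log2 fold change of each member, RIP1i minus DMSO, with its 95% interval from edgeR. Red points mark Axl and Mfge8, whose libraries do not overlap between groups, and every interval lies inside the dotted lines at 1.5-fold.

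Of the TAM receptors, Axl (chromosome 7, 25757273 to 25788705, minus strand) was the most abundant. It had 258, 253 and 254 FPKM in RIP1i replicates 1 to 3, against 261, 270.2 and 275 FPKM in DMSO replicates 1 to 3. All RIP1i libraries lay below all DMSO libraries, with RIP1i replicate 1 and DMSO replicate 1 closest to each other. Axl averaged 255 ± 3.04 FPKM in RIP1i and 269 ± 6.94 FPKM in DMSO (SD, n = 3 each), a log2 fold change of -0.072 ± 0.043 (SE) with an edgeR adjusted p of 0.809. The fold change stayed between -0.10 and -0.063 when each library was left out in turn.

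Mertk (chromosome 2, 128698956 to 128802894, plus strand), the receptor most tied to clearance by macrophages, had 36.4, 40.3 and 34.9 FPKM in RIP1i against 37.4, 36.2 and 42.2 FPKM in DMSO. The groups overlapped, and the highest libraries were DMSO replicate 3 and RIP1i replicate 2. Its log2 fold change was -0.050 ± 0.071 (SE, edgeR adjusted p = 0.918), and 0.012 without DMSO replicate 3. Within a library Axl stood at 7.10, 6.26 and 7.30 times the FPKM of Mertk in RIP1i and at 6.98, 7.47 and 6.52 times in DMSO. This ratio overlapped between groups.

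Tyro3 (chromosome 2, 119797733 to 119818104, plus strand), the weakest TAM receptor here, had 5.26, 5.78 and 5.55 FPKM in RIP1i, against 4.36, 4.69 and 5.53 FPKM in DMSO. RIP1i replicates 2 and 3 lay above all DMSO libraries, and DMSO replicate 3 lay among the RIP1i libraries. The log2 fold change was 0.19 ± 0.086 (SE, edgeR adjusted p = 0.777), the highest of the 10. It was 0.28 without DMSO replicate 3 (edgeR adjusted p = 0.772) and 0.11 without DMSO replicate 1 (edgeR adjusted p = 0.994).

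**Figure D3:**
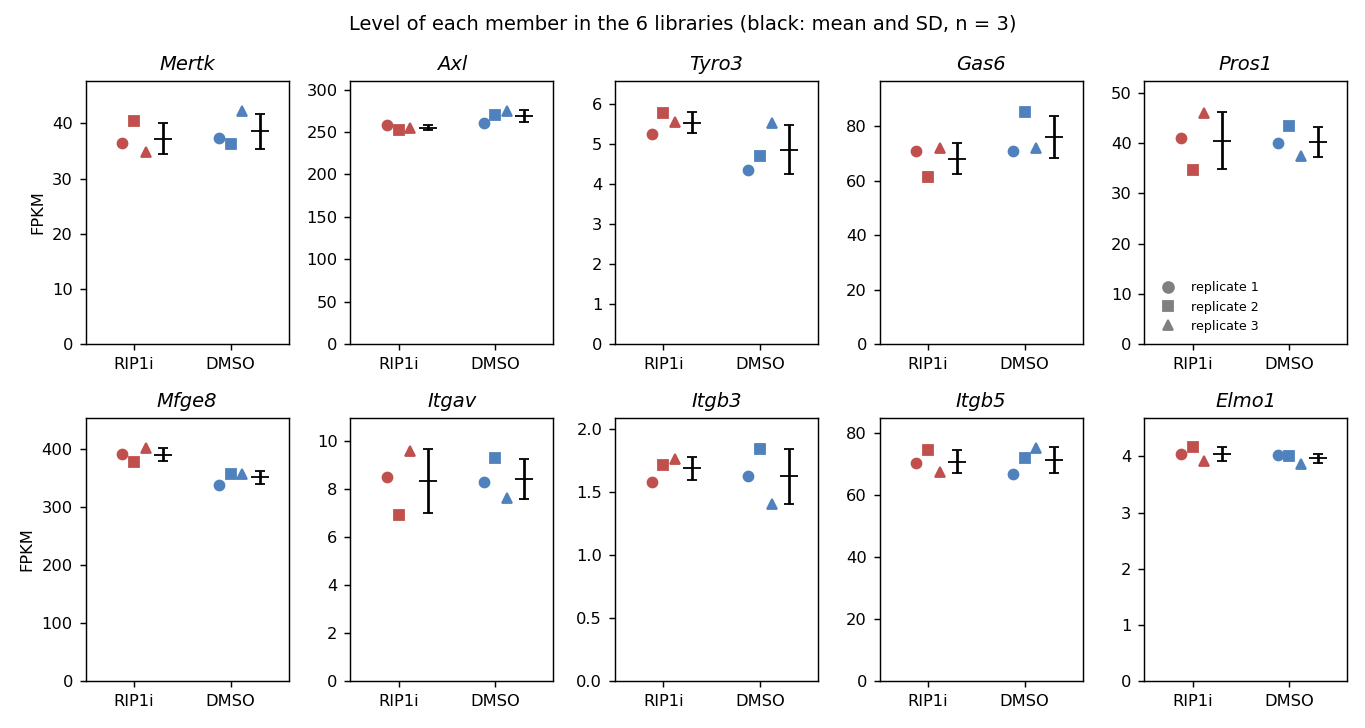
FPKM of each member in RIP1i (red, left) and DMSO (blue, right) libraries on axes from 0, with symbols for replicates 1 to 3 and the mean and SD of 3 libraries in black. The libraries of the groups separate for Mfge8 (379 to 402 against 339 to 357 FPKM) and Axl (253 to 258 against 261 to 275 FPKM) and overlap for the other members.

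The ligand Gas6 (chromosome 8, 13465374 to 13494490, minus strand) had 70.9, 61.3 and 71.8 FPKM in RIP1i, against 70.9, 85.0 and 72.0 FPKM in DMSO. RIP1i replicate 2 was the lowest library and DMSO replicate 2 the highest, and the other 4 lay within 70.9 to 72.0 FPKM. Gas6 had the most negative log2 fold change of the members, -0.16 ± 0.090 (SE, edgeR adjusted p = 0.801). Without RIP1i replicate 2 it was -0.093, without DMSO replicate 2 it was -0.073, and without both it was -0.0064. These libraries were also its lowest and highest, so leaving them out had to shrink the difference. The exons of Gas6 share 34 bases with Tmem255b on the opposite strand.

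The other ligand, Pros1 (chromosome 16, 62854307 to 62929346, plus strand), had 41.0, 34.7 and 46.0 FPKM in RIP1i, against 40.1, 43.4 and 37.4 FPKM in DMSO. RIP1i held both the lowest library, replicate 2, and the highest, replicate 3, with every DMSO library between them. Its log2 fold change was 0.012 ± 0.11 (SE, edgeR adjusted p = 0.987), and ran from -0.097 without RIP1i replicate 3 to 0.11 without RIP1i replicate 2. Gas6 exceeded Pros1 per length in all libraries, by 1.73, 1.77 and 1.56 times in RIP1i and by 1.77, 1.96 and 1.93 times in DMSO. The lowest DMSO ratio lay below the highest RIP1i ratio, so the groups overlapped.

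Mfge8 (chromosome 7, 79133768 to 79149060, minus strand), the bridge from phosphatidylserine to alpha V integrins, had 391, 379 and 402 FPKM in RIP1i, against 339, 357 and 357 FPKM in DMSO. All RIP1i libraries lay above all DMSO libraries. It averaged 391 ± 11.7 FPKM in RIP1i and 351 ± 10.7 FPKM in DMSO (SD, n = 3 each), a log2 fold change of 0.16 ± 0.050 (SE). The unadjusted p of 0.015 gave an edgeR adjusted p of 0.777 over all genes, and DESeq2 gave an adjusted p of 0.618. By p-value it was place 240 of 14857. The fold change was 0.12 to 0.17 when each library was left out, and 0.18 without both libraries numbered 2.

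The integrin chain Itgav (chromosome 2, 83724397 to 83806916, plus strand), the alpha V subunit, had 8.51, 6.93 and 9.57 FPKM in RIP1i, against 8.30, 9.30 and 7.63 FPKM in DMSO. As for Pros1, RIP1i replicate 3 was highest and RIP1i replicate 2 lowest. The log2 fold change was -0.0089 ± 0.12 (SE, edgeR adjusted p = 0.992), the widest error of the members. It was -0.13 without RIP1i replicate 3, 0.10 without RIP1i replicate 2, 0.063 without DMSO replicate 2 and 0.18 without both libraries numbered 2. Its exons share 634 bases with Gm13684, a transcript of the opposite strand.

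Of its beta partners, Itgb5 (chromosome 16, 33829665 to 33949338, plus strand) had 70.3, 74.7 and 67.4 FPKM in RIP1i, against 66.8, 71.8 and 75.1 FPKM in DMSO. The groups covered nearly the same range, with a log2 fold change of -0.0061 ± 0.055 (SE, edgeR adjusted p = 0.988). Itgb3 (chromosome 11, 104608000 to 104670476, plus strand), the beta 3 chain, had 1.58, 1.71 and 1.76 FPKM in RIP1i, against 1.62, 1.84 and 1.4 FPKM in DMSO. These came from 376, 424 and 435 counts in RIP1i and from 427, 438 and 374 counts in DMSO, where counting alone gives an error of about 4.92%. DMSO libraries were both the highest and the lowest in Itgb3, and the log2 fold change was 0.057 ± 0.11 (SE, edgeR adjusted p = 0.938), or -0.044 without DMSO replicate 3. Itgb5 stood at 44.5, 43.7 and 38.3 times the FPKM of Itgb3 in RIP1i and at 41.2, 39.0 and 53.7 times in DMSO, so beta 5 transcripts far outnumbered beta 3 transcripts per length in every library.

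Elmo1 (chromosome 13, 20090596 to 20608353, plus strand) had 4.05, 4.17 and 3.92 FPKM in RIP1i, against 4.02, 4 and 3.87 FPKM in DMSO. It was the steadiest member after Axl, with a coefficient of variation of 2.48% in RIP1i and 2.39% in DMSO, close to the 2.16% that counting alone gives. The log2 fold change was 0.035 ± 0.041 (SE, edgeR adjusted p = 0.898). Its exons share 403 bases with Gm32036, an antisense gene. Whether the counting used strand is not given in the sources used here, so reads from such overlaps cannot be assigned.

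The libraries differed within groups in a way that ran through several members. Pros1 and Itgav ranked the 6 libraries identically, RIP1i replicate 3 highest, then DMSO replicate 2, RIP1i replicate 1, DMSO replicate 1, DMSO replicate 3 and RIP1i replicate 2. Their spans from highest to lowest library were 0.43 and 0.48 on the log2 CPM scale. Gas6 spanned 0.48, with DMSO replicate 2 highest and RIP1i replicate 2 lowest. Mertk and Itgb5 had their highest levels in DMSO replicate 3 and RIP1i replicate 2, the libraries where Pros1 and Itgav were lowest. Mertk spanned 0.26 and Itgb5 0.16.

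Summed marker lists moved with the same libraries. The summed stromal markers, of which 12 of 12 had counts, stood at 239, 90.9 and 191 CPM in RIP1i replicates 1 to 3, against 204, 353 and 97.6 CPM in DMSO replicates 1 to 3. DMSO replicate 2 was thus highest and RIP1i replicate 2 lowest, as for Gas6, and the lowest pair was the same as for Pros1 and Itgav. These matches were not particular to the stromal list. The macrophage sum had the same highest and lowest library as Gas6. The osteoclast sum had those of Pros1 and Itgav, RIP1i replicate 3 highest and RIP1i replicate 2 lowest. The largest part of the stromal sum was Col1a2, with 34.2 CPM in RIP1i replicate 2 and 141 CPM in DMSO replicate 2. Lepr and Thy1 of the same list went the other way. They had 13.2 and 2.73 CPM in RIP1i replicate 2, their highest library, and 7.12 and 1.82 CPM in DMSO replicate 2, their lowest. The summed neutrophil markers (10 of 10 with counts) stood at 467, 660.4 and 225 CPM in RIP1i, against 460.0, 228 and 628 CPM in DMSO. Their highest libraries, RIP1i replicate 2 and DMSO replicate 3, were the highest for Mertk, and their lowest, RIP1i replicate 3 and DMSO replicate 2, were the lowest for Mertk. The macrophage markers (10 of 10) summed to 52644, 46069 and 55235 CPM in RIP1i, against 54647, 60345 and 52669 CPM in DMSO, and most of this was the lysozyme gene Lyz2 at 45252 ± 4857 CPM in RIP1i and 49723 ± 3966 CPM in DMSO (SD, n = 3 each). Adgre1, Mrc1 and Fcgr3 of this list were highest in RIP1i replicate 2 (711, 1120 and 973 CPM), where the sum was lowest. Csf1r, Fcgr1 and Cd14 were lowest there (1280, 83.5 and 120 CPM), as the sum was. The part of these cell markers in the members' levels was not tested.

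**Figure D4:**
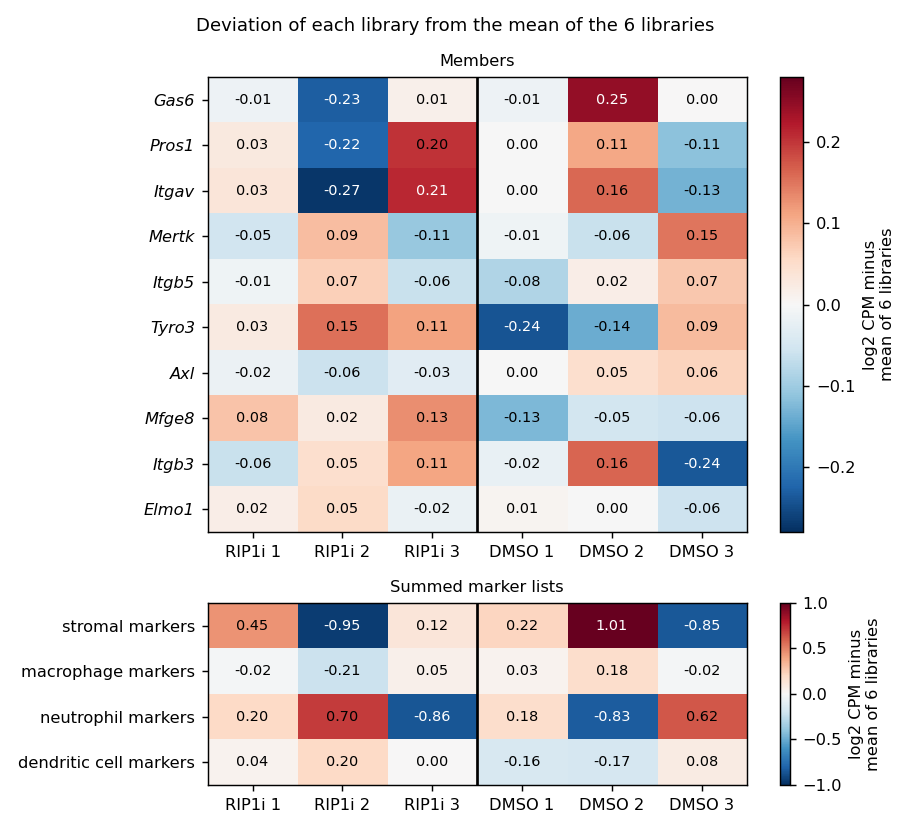
Deviation of each library from the mean of the 6 libraries, as log2 CPM, for the members (upper panel) and for summed marker lists (lower panel), with RIP1i left of DMSO and separate colour scales. Pros1 and Itgav are at -0.22 and -0.27 in RIP1i replicate 2 and at 0.20 and 0.21 in RIP1i replicate 3, and the stromal markers run from -0.95 in RIP1i replicate 2 to 1.01 in DMSO replicate 2.

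Of the other marker lists, that of lymphocytes was near 0 and the rest varied less across libraries than the stromal and neutrophil lists. Osteoclast markers, of interest since osteoclasts carry beta 3 integrin, had counts for 8 of 9 genes, with Calcr at 0. They summed to 1224 to 1397 CPM in RIP1i and 1256 to 1275 CPM in DMSO. Most of this was Atp6v0d2, at 901 ± 18.6 CPM in RIP1i and 862 ± 32.2 CPM in DMSO (SD, n = 3 each). Ctsk, Acp5 and Dcstamp came next. Mmp9 averaged 1.54 CPM in RIP1i and 2.22 CPM in DMSO, and Oscar 0.0325 and 0.112 CPM. Whether the cultures held osteoclasts was not tested. Megakaryocyte and platelet markers (10 of 10 with counts) summed to 25.4 to 26.8 CPM in RIP1i and 23.7 to 27.3 CPM in DMSO. Mast cell and basophil markers (7 of 8, Mcpt4 at 0) summed to 166 to 204 CPM in RIP1i and 167 to 204 CPM in DMSO. Nearly all of this was Kit, at 169 ± 13.7 CPM in RIP1i and 170 ± 13.7 CPM in DMSO (SD, n = 3 each). Cpa3, the next highest, averaged 8.73 CPM in RIP1i and 7.98 CPM in DMSO. Dendritic cell markers (10 of 10) summed to 2322 to 2662 CPM in RIP1i and 2057 to 2453 CPM in DMSO. Nearly all of this was Itgax, at 1335 CPM in RIP1i and 1225 CPM in DMSO, and H2-Ab1, at 1070 and 925 CPM. Ccr7 came next at 16.8 and 16.2 CPM. Flt3 averaged 0.638 and 0.822 CPM, Siglech 1.00 and 0.963 CPM, and Xcr1 0.130 and 0.122 CPM. Lymphocyte markers (8 of 8) summed to at most 0.617 CPM in RIP1i and 0.508 CPM in DMSO.

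The rest of the pathway was described by 8 lists, and no gene of any of them passed the test. Among 18 other receptors for phosphatidylserine or apoptotic cells, 13 were tested, with 5 fitted higher, 8 lower and a median log2 fold change of -0.033. The scavenger receptor Stab1 was at -0.23 ± 0.076 (SE) and the receptor Havcr2, which encodes TIM-3, at 0.16 ± 0.053. Adgrb1, which encodes BAI1, a receptor upstream of ELMO1, stood at 0.825 ± 0.0907 CPM in RIP1i and 1.07 ± 0.121 CPM in DMSO (SD, n = 3 each). The scavenger receptor Cd36 was at 0.19 ± 0.12 on the log2 scale. Timd4, a phosphatidylserine receptor of resident macrophages, had 0 to 3 counts per library, and Havcr1, Stab2, Megf10 and Ager were also too low to test, with at most 13 counts.

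Of 14 other bridging and opsonic genes, 11 were tested, with 7 fitted higher, 4 lower and a median of 0.0081. Complement C3 stood at 552 ± 16.6 CPM in RIP1i and 623 ± 13.8 CPM in DMSO (SD, n = 3 each), a log2 fold change of -0.18 ± 0.043 (SE, unadjusted p = 0.00389, edgeR adjusted p = 0.777). All RIP1i libraries lay below all DMSO libraries. Anxa1, the phosphatidylserine-binding annexin A1, was at 0.17 ± 0.069, Calr, the eat-me signal calreticulin, at 0.093 ± 0.042, and Lgals3, galectin-3, at 0.12 ± 0.062. Lgals3 was 2263 FPKM on average and Anxa1 499 FPKM, both above Mfge8. Tulp1, Tub and C4b were too low to test, at 0, 0 to 2 and 3 to 17 counts per library.

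Among 22 genes of engulfment signalling to Rac, 21 were tested, with 9 fitted higher, 12 lower, a median of -0.0093 and none at an unadjusted p under 0.05. The smallest p-values belonged to Cdc42 (0.10 ± 0.044), a GTPase of the actin skeleton, Vav3 (0.11 ± 0.052), an exchange factor, Elmo3 (-0.29 ± 0.16) and Rac1 (0.062 ± 0.040). Elmo2, Dock1 and Dock2, chosen after their values were seen, averaged 10.98, 7.01 and 34.0 FPKM. Per length, Elmo2 was thus above Elmo1 and Dock2 above Dock1. Elmo2 was also above Elmo1 in CPM (72.3 against 51.1 in RIP1i, 74.1 against 49.9 in DMSO). The adaptor Gulp1 had 2 to 6 counts per library and was not tested.

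The list of other integrin chains held 10 genes, of which 8 were tested, with 6 fitted higher, 2 lower and a median of 0.027. Itgb1, another beta partner of alpha V, averaged 121 FPKM, above Itgb5, and was at 0.063 ± 0.037. The leukocyte beta chain Itgb2 was at 0.074 ± 0.044 and its alpha partners Itgax and Itgam at 0.12 ± 0.063 and -0.052 ± 0.050. The remaining alpha V partners Itgb6 and Itgb8 had at most 1 and 4 counts in a library.

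**Figure D5:**
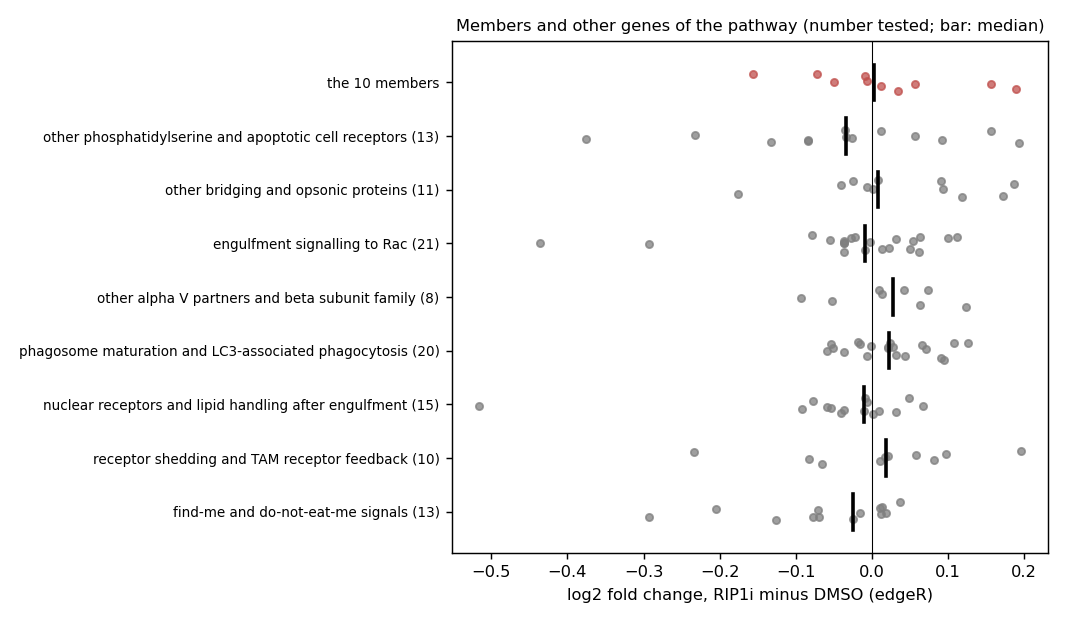
Fitted log2 fold change, RIP1i minus DMSO, of the 10 members (red) and of the tested genes of 8 pathway lists (grey), 1 point per gene, with black bars at the medians. The medians lie between -0.033 and 0.027, and the lowest point is Apoe at -0.52.

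The lists of later steps gave the same count of 0 called genes. All 20 genes of phagosome maturation and LC3-associated phagocytosis were tested, with 12 fitted higher, 8 lower and a median of 0.022. Rab5a, of the early phagosome, was at 0.095 ± 0.052 and Atg5, of LC3 conjugation, at 0.067 ± 0.039. All 15 genes of nuclear receptors and lipid handling were tested, with 5 fitted higher, 10 lower and a median of -0.010. Apoe, apolipoprotein E, stood at 1497 ± 512 CPM in RIP1i and 2140 ± 293 CPM in DMSO (SD, n = 3 each), with overlap, and Ucp2, a mitochondrial carrier, was at -0.092 ± 0.048. Of 11 genes of receptor shedding and TAM feedback, 10 were tested, with 7 fitted higher, 3 lower and a median of 0.019. The sheddase Adam17, which cleaves MerTK from the cell surface, was at 0.082 ± 0.045, with all RIP1i libraries above all DMSO libraries, and the feedback inhibitor Socs1 was at 0.20 ± 0.20. Twist2 had 1 to 12 counts. All 13 genes of find-me and do-not-eat-me signals were tested, with 5 fitted higher, 8 lower and a median of -0.025. The inhibitory receptor Pirb was at -0.071 ± 0.042 and the nucleotide receptor P2ry6 at -0.078 ± 0.065.

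Genes whose RIP1i and DMSO libraries were fully separated numbered 2 in each list of receptors, Rac signalling, integrins, phagosome, lipid handling and shedding, 3 in bridging proteins and 0 in find-me signals, beside the 13.5% of all genes.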

How the data were processed

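RNA sequencing libraries, 3 of RIP1i and 3 of DMSO, were grouped by the treatment in their titles. The authors deposited raw read counts per gene and FPKM values for the same genes. The build was mm10 (GRCm38), and the submitters' processing notes name DESeq2 1.14.0, Subread 1.4.6-p3, featureCounts, STAR 2.5.3a and CASAVA 1.8.4. The role of each, the annotation and the strand setting were not given in the sources used here. Over 424 genes of high level, the FPKM library factor times the size factor by median of ratios was constant within 0.00014%, so the FPKM hold the same reads. For 88.6% of 6561 genes, the gene length in the FPKM lay within 5% of the exon length in GENCODE M21. Among the members it did so for all but Itgb5 (0.946 of it).

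Counts were filtered with filterByExpr (minimum count 10, minimum total 15), scaled by TMM and fitted with edgeR 4.0.16 in R 4.3.3, with treatment as the only term, 2-sided, with Benjamini-Hochberg adjustment over all 14857 genes. The script was tested on simulated data with a fixed dispersion and changes larger than that fitted for any member. That checks the code and does not bear on differences as small as those of the members. Log2 fold changes are RIP1i minus DMSO, and the SE comes from the F statistic. Levels carry the SD over libraries. Depth is the total count per library, and the counting error quoted is the inverse square root of the mean count.

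Replicates of a group differed by more than sampling noise (chi-square per degree of freedom from 12.5 to 36.0 over the pairs). Deviations of same-numbered libraries correlated at 0.0058, -0.53 and -0.48, so the numbers were not treated as pairs. Across differently numbered libraries of the 2 groups they ran from -0.31 to 0.60. The highest were RIP1i replicate 2 with DMSO replicate 3 (0.60) and RIP1i replicate 3 with DMSO replicate 2 (0.40). The cause of these was not tested. The members, lists and tests were chosen with earlier results of these data known. Named were all members, up to 4 genes of smallest p per list, not all of which are printed, untested genes, and markers. Alternatives used RLE or upper-quartile scaling, other filters, DESeq2 1.42.0, limma-voom (limma 3.58.1), limma-trend on log2 FPKM with pseudocounts of 1 or 0.1, a replicate block and left-out libraries.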

Additional observations from a re-analysis of the deposited data

How the results depend on the processing

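The count of 0 called members held under every alternative run. The count of 0 called genes over the whole table was 2 with DESeq2 and 4 with limma-trend on log2(FPKM + 1) without a filter (the cause was not tested), and 0 in all others, including those that left out each library in turn. With the replicate block, where the shared numbers are no sign of pairing, 0 genes and 0 members were called. No library correlated positively with its own number by more than 0.0058. Axl, Gas6, Tyro3, Mfge8 and Elmo1 kept their direction under all 17 alternatives. Pros1, Itgav, Mertk, Itgb3 and Itgb5 did not under at least 1. With upper-quartile scaling Pros1 changed sign to -0.00076, and without both libraries numbered 2 Itgav changed sign to 0.18. In that setting Pros1 (0.16) and Mertk (-0.16) kept their sign. Leaving out each library in turn, log2 fold changes ran from -0.097 to 0.11 for Pros1, from -0.13 to 0.10 for Itgav, from -0.12 to 0.012 for Mertk, from -0.044 to 0.15 for Itgb3 and from -0.060 to 0.027 for Itgb5. Without both libraries numbered 2, 4 members met an unadjusted p under 0.05 (8.26% of all genes there, smallest edgeR adjusted p 0.602). It was met by 2 members without a filter (4.42% of all genes) or without DMSO replicate 3 (6.03%). It was met by 0 when RIP1i replicate 1 (4.61% of all genes), RIP1i replicate 3 (5.72%) or DMSO replicate 1 (4.01%) was left out. In all other settings 1 member met it, where 2.78% to 6.94% of all genes did. That member was Mfge8 except with the replicate block. There it was Tyro3 (edgeR unadjusted p = 0.044), and Mfge8 had an edgeR unadjusted p of 0.065. Depth limits Itgb3 most, with 374 to 438 counts per library.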
